A study of Mus musculus with 54 samples.

Results

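Imprinted genes are genes that mammals transcribe mainly from the copy inherited from 1 parent. The set described here held 44 such genes from 14 groups of loci, chosen by symbol from a fixed list of well-known mouse imprinted genes and found among the 26264 genes counted in both gonads. From general knowledge of the mouse, 25 of them are mostly transcribed from the paternal copy, 12 from the maternal copy, and 7 in a way that depends on tissue or isoform. The deposited counts are per gene and sum both copies, so the share from each parent was not measured.

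RNA was sequenced from mouse testes at 35 days post partum and from ovaries at 30 days post partum, in 54 libraries that form 18 groups of 3. In F1, pregnant dams and then their offspring drank water with a cocktail of ibuprofen, 2-hydroxyibuprofen, diclofenac and the synthetic estrogen ethinyl-estradiol from 8.5 days post coitum. Dose 1 held 11.3, 90, 22.5 and 2.25 ng/L of these agents in that order, dose 2 held 113, 225, 112 and 45 ng/L, and control water held 0.001% ethanol. In F2, both parents came from F1 groups, and the labels give only the groups of the parents. Crosses are called after the parent taken from an exposed group: a dose 1 mother mated with a control father gives the maternal dose 1 cross, and a dose 1 father mated with a control mother the paternal dose 1 cross. Dose 2 mothers and dose 2 fathers give a maternal and a paternal dose 2 cross likewise. Both parents were from the dose 2 group in the biparental dose 2 cross and from the control group in the control cross. Libraries of a group are called A, B and C, and nothing in the labels says that they came from separate animals or litters, so the p-values measure only the spread between these libraries.

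Imprinting is set in the germ line. Primordial germ cells erase the parental methylation marks, male germ cells write a few marks before birth, and oocytes write many marks while they grow after birth. The marked control regions then act on clusters of genes, often through a long non-coding RNA that silences its neighbours on the same chromosome, as Kcnq1ot1 and Airn do in the mouse placenta and embryo. Because somatic and germ cells share the gonad, a whole-gonad count sums cells with and without parental marks. The question for these genes was whether exposure, or descent from an exposed parent, was accompanied by a change of their transcript level.

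Several of the members are templates for small RNAs or lie in CpG-rich promoters, and the sequences of those that the results turn on are given first, from RefSeq tables of the build GRCm38.p6. The mature miRNAs below are cut from transcripts of H19, Mest, Rian and Mirg, with the seed (bases 2 to 8) in capitals. No pair of the 4 shares a seed. Mirg alone hosts 10 miRNA hairpins on its strand, Rian 3 and Meg3 2.
H19, miR-675-5p: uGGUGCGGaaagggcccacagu
Mest, miR-335-5p: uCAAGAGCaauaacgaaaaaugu
Rian, miR-370-3p: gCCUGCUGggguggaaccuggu
Mirg, miR-410-3p: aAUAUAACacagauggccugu

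The 3 promoters below run from 250 bases before to 50 bases after the RefSeq start. Kcnq1ot1 (chr7:143296498-143296797, minus strand) is shown because its level passed the test in F2 testis. Nap1l5 (chr6:58907077-58907376, minus strand) and Nnat (chr2:157559828-157560127, plus strand) are shown because they were the members furthest below ovary in testis by fitted fold. Capitals mark TGCCGC, the core of the motif read by the imprint-protecting zinc finger protein ZFP57, on either strand.
Kcnq1ot1: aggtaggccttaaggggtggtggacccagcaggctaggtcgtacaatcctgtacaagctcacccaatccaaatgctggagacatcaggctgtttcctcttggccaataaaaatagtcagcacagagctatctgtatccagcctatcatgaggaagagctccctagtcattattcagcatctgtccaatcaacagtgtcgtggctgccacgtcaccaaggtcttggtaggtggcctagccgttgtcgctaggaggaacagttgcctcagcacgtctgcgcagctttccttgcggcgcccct
Nap1l5: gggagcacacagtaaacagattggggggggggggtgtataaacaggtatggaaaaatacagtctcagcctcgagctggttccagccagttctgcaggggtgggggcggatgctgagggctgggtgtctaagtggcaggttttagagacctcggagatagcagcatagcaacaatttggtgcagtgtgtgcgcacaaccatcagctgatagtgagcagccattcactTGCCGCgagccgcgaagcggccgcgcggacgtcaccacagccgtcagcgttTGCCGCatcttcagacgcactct
Nnat: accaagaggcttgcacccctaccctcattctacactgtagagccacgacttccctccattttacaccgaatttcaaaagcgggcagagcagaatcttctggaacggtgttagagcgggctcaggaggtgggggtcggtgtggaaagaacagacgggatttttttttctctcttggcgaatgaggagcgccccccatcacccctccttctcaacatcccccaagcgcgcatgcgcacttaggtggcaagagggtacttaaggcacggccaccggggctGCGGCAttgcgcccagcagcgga

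The Kcnq1ot1 window holds 9 CpG and 0 copies of the motif, the Nap1l5 window 17 CpG and 2 copies, and the Nnat window 17 CpG and 1 copy. Of the 44 members, 35 had a promoter entry, with 49 entries in all. The motif stood in 12 of these 49 entries (24.5%), which belong to 11 members, and in 11.6% of all 32851 entries of 300 bases. The median entry held 15 CpG for the members and 7 over all entries. A match is a description of the letters in the window and not of binding.

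Levels are in CPM (counts per 1 M counts of the scaled library, M for mega), and differences are log2 fold changes from edgeR, with a gene called where its Benjamini-Hochberg adjusted p over all genes tested was under 0.05. Library totals ran from 31.8 to 122.4 M counts in F1 testis, 31.6 to 48.2 M in F2 testis, 36.6 to 57.4 M in F1 ovary and 37.9 to 84.7 M in F2 ovary. The tissue labels were borne out by marker sums: 6 spermatid markers summed to between 6572 and 26700 CPM in testis libraries, where 7 oocyte markers summed to at most 1.69 CPM, against 405 to 816 CPM in ovaries. The spermatid sum was 1174 CPM in F1 ovary control A against a median of 37.6 CPM in F1 ovary. That median was itself far above the 0.308 to 0.536 CPM of the F2 ovary control cross. F1 ovary controls enter the comparison of testis with ovary below, and the part of these spermatid transcripts there was not tested. In F1 testis dose 2 B and C the spermatid sum was 6572 and 26700 CPM, the lowest and the highest of F1 testis. F2 ovary maternal dose 1 cross C stood apart over all genes tested. On the first principal component, the main axis of difference between libraries, it lay at 97.3, and the other F2 ovary libraries at -22.3 to 17. It also had low levels of members given below. Results that rest on these 4 libraries are given with and without them. Excepted are the F1 testis dose 2 comparisons without B and C together, where library A alone would remain. The fits without these libraries, apart from the planned ones that leave out each library, were chosen after the data were seen.

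Most imprinted genes were far lower in testis than in ovary. In the 12 control libraries (F1 control and F2 control cross, 6 of each tissue, scaled together), 40 members could be tested. Of these, 28 were called lower and 7 higher in testis than in ovary by edgeR, where 90.3% of all 20167 genes tested were called. The share of members called is therefore near that of all genes, while the median fold was -1.67 over the members and -0.0055 over all genes. The median size of the difference without its sign was 2.39 for the members and 1.90 for all genes, and the median fold was -1.82 for the 22 paternally and -2.36 for the 11 maternally expressed members. Tissue, sex and age go together in this comparison and cannot be told apart, nor can fewer cells of a type and less RNA per cell in whole gonads. With relative log expression (RLE) size factors in place of the trimmed mean of M values (TMM), the all-gene median of this comparison moved by 0.278, and 9 members were called higher and 28 lower; only Cdkn1c and Mirg, which were not called, changed sign. Without F1 ovary control A the counts were again 7 higher and 28 lower.

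**Figure D1:**
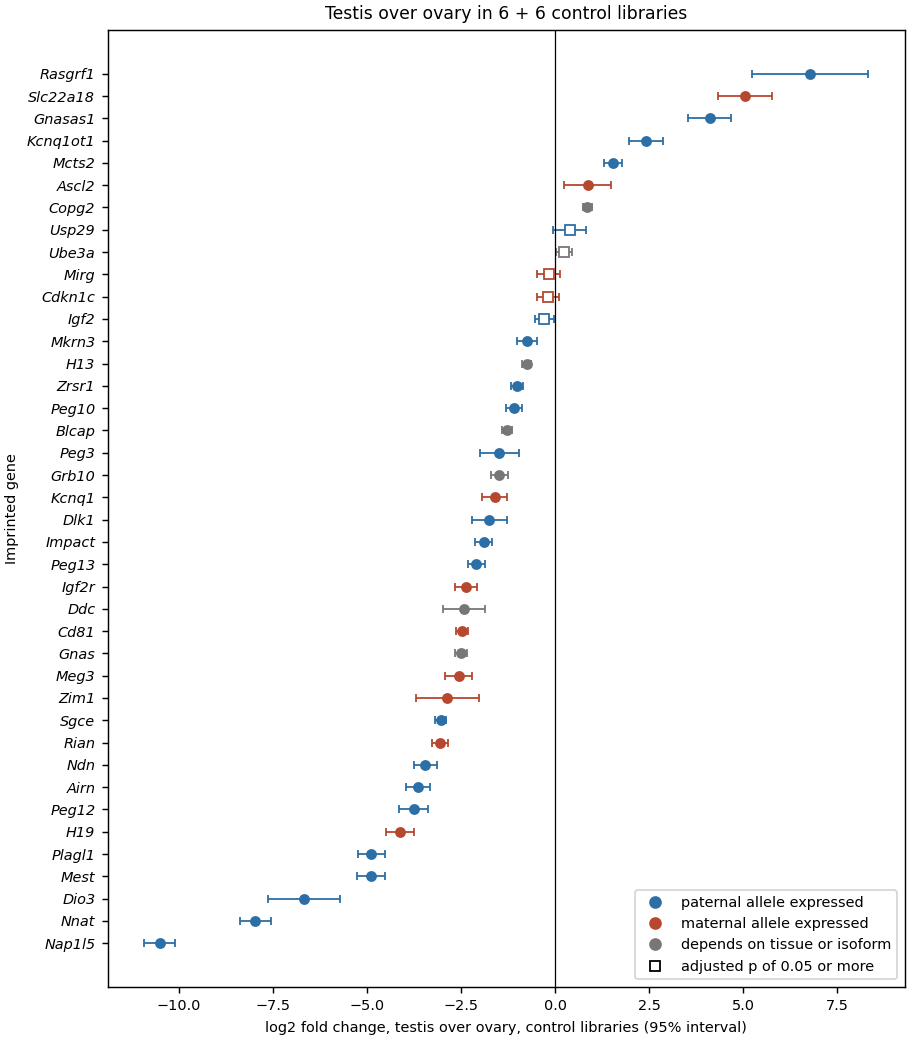
Log2 fold change of testis over ovary in the 12 control libraries for the 40 members tested, with 95% intervals, coloured by the expressed parental copy; open squares are members with an adjusted p of at least 0.05. Points left of 0 are lower in testis: 28 members were called there and 7 right of 0, and the points of Rasgrf1, Dio3 and Nap1l5 rest on low counts in 1 of the tissues.

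Among the members lower in testis, the widest gaps by fitted fold were in Nap1l5, Nnat and Dio3. Nap1l5, an intronless gene of the nucleosome assembly protein family, had 0.0268, 0.19 and 0.841 CPM as lowest, median and highest of 27 testis libraries, and 189, 418 and 526 CPM in 27 ovary libraries. Its testis values rest on 1 to 52 counts per library. Nnat, which encodes the small membrane protein neuronatin, had 0.205, 0.391 and 1.94 CPM in testis against 81.0, 127.9 and 220 CPM in ovary. No testis library came near any ovary library for either gene, and their fitted changes in the control libraries were -10.51 (SE 0.21) and -7.97 (SE 0.21). Dio3, the enzyme that inactivates thyroid hormone, had 0 to 17 counts in testis libraries and 196 to 811 counts in ovary libraries. Nap1l5 and Nnat each lie in an intron of another gene on the opposite strand (Herc3 and Blcap), per GENCODE M21.

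Plagl1, Mest, H19, Igf2r, Airn, Grb10 and Ddc were also called lower in testis, while Igf2 was not. Plagl1, a zinc finger regulator of other imprinted genes, had a median of 5.16 CPM in testis and 144 CPM in ovary (-4.88, SE 0.18). Mest, an enzyme of the alpha/beta-hydrolase fold, differed as much (-4.88, SE 0.19), and H19, a non-coding RNA that restrains growth, by -4.12 (SE 0.20). Its neighbour Igf2, the growth factor, was close in the 2 tissues, with 10.0 ± 1.62 CPM in control testes and 12.2 ± 3.29 CPM in control ovaries (SD, n = 6 each) and an edgeR adjusted p of 0.0509. Igf2r, the receptor that clears Igf2, had a median of 25.6 CPM in testis and 168 CPM in ovary, and its antisense RNA Airn 0.289 CPM in testis and 4.81 CPM in ovary. The changes of Igf2r and Airn were -2.36 and -3.64. Grb10, an adaptor that damps insulin signalling, was 38.1 CPM in testis and 138 CPM in ovary at the median, and Ddc beside it, which makes dopamine and serotonin, 0.391 and 2.75 CPM in the same order.

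The members of 3 further clusters did not all differ. In the Dlk1-Dio3 cluster, the maternally expressed RNAs Meg3 and Rian had medians of 35.1 and 12.7 CPM in testis against 222 and 125 CPM in ovary, and both were called lower in testis. Mirg, the third of these RNAs, had medians of 2.99 CPM in testis and 5.23 CPM in ovary and was not called (-0.17, SE 0.16). Dlk1, a membrane ligand related to Notch ligands, was called lower in testis (-1.75, SE 0.24), and Rtl1, a gene derived from a retrotransposon, had 0 to 2 counts in testis libraries and 0 to 5 in ovary libraries. In the Peg3 cluster, the zinc finger genes Peg3 and Zim1 were called lower in testis (-1.48 and -2.86), while the ubiquitin protease gene Usp29 was not called (0.39, SE 0.22). In the Snrpn cluster, Ndn, Peg12 and Mkrn3 were called lower in testis by -3.45, -3.76 and -0.75, the ubiquitin ligase gene Ube3a was not called (0.24, SE 0.11), and Snrpn and Magel2 never exceeded 9 and 22 counts. Of these, Ndn and Magel2 belong to the MAGE family, and Mkrn3 is known as a brake on puberty.

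The 7 members called higher in testis included 3 of the Kcnq1ot1 domain. Kcnq1ot1 had 46.8, 122 and 215 CPM as lowest, median and highest in testis and 4.71, 29.0 and 40.8 CPM in ovary (2.42, SE 0.23). Slc22a18, an organic cation transporter gene of that domain, had 9.32, 12.3 and 16.5 CPM in testis and 0.15, 0.471 and 1.2 CPM in ovary (5.05, SE 0.37), with the highest ovary value in F1 ovary control A and a change of 5.56 without it. Ascl2, a trophoblast transcription factor, was low in both tissues, at medians of 0.574 CPM in testis and 0.352 CPM in ovary, and its call was lost without F1 ovary control B (0.74, edgeR adjusted p = 0.0543). In the rest of the domain, the channel gene Kcnq1 and the tetraspanin gene Cd81 were called lower in testis (-1.60 and -2.48), the cell cycle inhibitor gene Cdkn1c was not called (-0.18, SE 0.15), and Phlda2, a brake on placental growth, had at most 22 counts in testis and 12 in ovary.

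The other 4 members higher in testis were Rasgrf1, Gnasas1, Mcts2 and Copg2. Rasgrf1, which encodes an activator of Ras, had 161 to 790 counts in testis libraries and 0 to 38 counts in ovary libraries, the 38 in F1 ovary control A. Its fitted change was 6.78 (SE 0.79) with that library and 8.48 without it, and both rest on ovary counts near 0. Gnasas1, the antisense RNA of the Gnas locus, had 2.2, 4.83 and 8.67 CPM in testis and 0.211, 0.445 and 1.23 CPM in ovary (4.11, SE 0.30). Gnas itself, which encodes the stimulatory G protein alpha subunit, was called the other way, with 95.5, 121 and 138 CPM in testis and 764, 964 and 1243 CPM in ovary (-2.51, SE 0.08). Mcts2, a retrogene in an intron of H13 on the same strand, was called higher in testis (1.54, SE 0.12) while H13, a signal peptide peptidase gene, was called lower (-0.76, SE 0.06). Copg2, a coat protein gene that overlaps the end of Mest, was 85.2 CPM in testis and 63.3 CPM in ovary at the median (0.86, SE 0.06).

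The rest of the members tested were called lower in testis. They were Sgce (-3.04), a sarcoglycan of the muscle membrane complex, its neighbour Peg10 (-1.09), a gene derived from a retrotransposon, the non-coding RNA Peg13 (-2.09), Impact (-1.90), a regulator of translation, Blcap (-1.27) and Zrsr1 (-1.0), a splicing factor retrogene. Over all 54 libraries, scaled within each tissue and generation, 26 members lay lower in every testis library than in any ovary library, 5 lay higher, and 13 overlapped. The same count was not made over all genes, so it is not read as particular to the members. With the control libraries scaled together, the TMM factors were 0.821 to 0.921 in testis and 1.07 to 1.24 in ovary. Separate scaling therefore sets testis lower against ovary than the joint fit does, in this count and in the medians of all libraries given above. The 5 members with the most CPM were Kcnq1ot1, Gnas, Ube3a, Copg2 and H13 in testis, and Gnas, Nap1l5, Cd81, Meg3 and H13 in ovary. Per kilobase of exon the order was another: Mcts2 (23.2 CPM per kb), Cd81 (19) and Copg2 (16.6) led in testis, where Kcnq1ot1 with its 93.1 kb reached 1.31, and Nap1l5 (227), Cd81 (137) and Gnas (86.2) led in ovary.

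Among the F2 testes, Kcnq1ot1 was lower in the maternal dose 2 cross. It had 102, 107 and 89.2 CPM (3856, 4208 and 4280 counts) in the maternal dose 2 cross and 215, 169 and 171 CPM (9241, 6234 and 6447 counts) in the control cross. All 3 libraries of the maternal dose 2 cross lay below all 3 of the control cross. The means were 99.1 ± 8.99 CPM in the maternal dose 2 cross and 185 ± 25.9 CPM in the control cross (SD, n = 3 each), a log2 change of -0.90 (SE 0.13, edgeR adjusted p = 0.00651). The paternal dose 2 cross had 166, 185 and 159 CPM, again with no overlap, and the maternal dose 2 cross was lower than it by -0.78 (SE 0.13, edgeR adjusted p = 0.0380). Both comparisons share the maternal dose 2 libraries. The call against the control cross was lost without control cross A (-0.78, edgeR adjusted p = 0.0626) and without maternal dose 2 cross C (-0.83, adjusted p = 0.0670). In both of these fits 0 of all genes were called, against 72 with all libraries. The call against the paternal dose 2 cross was lost when any library of the maternal dose 2 cross was left out. It was also lost without library A or B of the paternal dose 2 cross (edgeR adjusted p from 0.0668 to 0.265 over these fits). In these fits 0 to 3 of all genes were called, against 23 with all libraries.

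The other exposed crosses were compared with the same control libraries. Kcnq1ot1 had 141, 122 and 106 CPM in the paternal dose 1 cross (-0.59, SE 0.13, edgeR adjusted p = 0.0777) and 127, 148 and 121 CPM in the biparental dose 2 cross (-0.49, SE 0.13, adjusted p = 0.421). These 6 libraries also lay below the 3 of the control cross, but neither comparison passed. The maternal dose 1 cross, at 187, 161 and 129 CPM, overlapped the control cross. In F1 testis, Kcnq1ot1 had 74.1, 127 and 48.3 CPM in controls, 95.4, 68.9 and 62 CPM at dose 1 and 56.0, 94.2 and 46.8 CPM at dose 2, so that the doses overlapped.

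The neighbours on which Kcnq1ot1 is known to act in other tissues were not called by edgeR in either comparison. Cdkn1c had 8.63, 8.06 and 10.9 CPM in the maternal dose 2 cross and 10.2, 9.04 and 8.37 CPM in the control cross (0.00, SE 0.13, 95% interval -0.26 to 0.26). Kcnq1 had 2.11, 2.13 and 2.04 CPM in the maternal dose 2 cross and 2.74, 1.9 and 2.2 CPM in the control cross (-0.13, SE 0.17, interval -0.47 to 0.22). The groups overlapped for both genes. Slc22a18, Ascl2 and Cd81 changed by 0.16, 0.30 and 0.04 on the log2 scale against the control cross. In the maternal over the paternal dose 2 cross, Slc22a18 had 14.1, 13.6 and 14.8 CPM in the maternal dose 2 cross and 11.0, 10.3 and 11.7 CPM in the paternal dose 2 cross, without overlap (0.36, SE 0.10, edgeR adjusted p = 0.124). DESeq2 called it there (0.36, adjusted p = 0.0394). The changes of Cdkn1c and Kcnq1 in that comparison were -0.05 (SE 0.13) and -0.27 (SE 0.17). Exons of Kcnq1ot1 and Kcnq1 overlap on opposite strands, and the strand setting of the counting is not given in the sources used here.

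Gnasas1 was lower in the paternal dose 1 cross of F2 testis. It had 4.51, 2.61 and 3.86 CPM (176, 98 and 169 counts) in the paternal dose 1 cross and 8.67, 8.03 and 7.94 CPM (373, 296 and 300 counts) in the control cross. No library of the paternal dose 1 cross reached the lowest of the control cross. The change was -1.16 (SE 0.19, edgeR adjusted p = 0.0165), from means of 3.66 ± 0.965 CPM in the paternal dose 1 cross and 8.22 ± 0.395 CPM in the control cross (SD, n = 3 each). In a fit of these 6 libraries alone the edgeR adjusted p was 0.0706. It was 0.0507 to 0.115 when a library of the control cross (any of its 3) or paternal dose 1 cross B or C was left out. Without paternal dose 1 cross A Gnasas1 stayed called. In the fits that lost the call 3 to 15 of all genes were called, against 39 with all libraries and 53 without paternal dose 1 cross A. Over all 6 fits that leave out 1 of these libraries, the changes ran from -1.34 to -0.97.

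The 4 other exposed crosses were also on the low side, again against the same 3 control libraries. Gnasas1 had 4.51, 6.26 and 4.83 CPM in the maternal dose 1 cross (-0.66), 5.61, 5.32 and 6.90 CPM in the maternal dose 2 cross (-0.46), 7.67, 5.56 and 6.26 CPM in the paternal dose 2 cross (-0.34) and 5.08, 3.62 and 5.18 CPM in the biparental dose 2 cross (-0.83). Every one of these 12 libraries lay below the lowest control cross library, while none of the 4 comparisons passed by edgeR, with adjusted p from 0.243 to 0.989 for the 4. In F1 testis it had 4.79, 6.32 and 2.49 CPM in controls, 4.68, 4.40 and 4.67 CPM at dose 1 and 3.0, 3.01 and 2.2 CPM at dose 2. Gnas, whose exons overlap those of Gnasas1 on the other strand, had 118, 129 and 132 CPM in the paternal dose 1 cross and 106, 112 and 124 CPM in the control cross of F2 testis (0.15, SE 0.07, edgeR adjusted p = 0.386).

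Other transcripts that moved with these 2 genes are given as measured. Malat1, a nuclear non-coding RNA that is no member, had 269, 366 and 302 CPM in the maternal dose 2 cross, 396, 326 and 237 CPM in the paternal dose 1 cross and 1073, 793 and 890 CPM in the control cross. It was called lower in both crosses (-1.56, edgeR adjusted p = 0.00613, and -1.52, adjusted p = 0.00299), as were the ribosomal precursor Rn45s (-0.68 and -1.0) and Lars2 (-1.99 and -2.36), while Neat1, another nuclear RNA, was not (-0.11 and -0.06). In the maternal over the paternal dose 2 cross Malat1 was called lower (-1.09, edgeR adjusted p = 0.0443), while Rn45s (-0.18), Lars2 (-0.87) and Neat1 (-0.08) were not called. In the biparental dose 2 cross Rn45s was called lower (-0.87, edgeR adjusted p = 0.00127), while Malat1 (-0.96), Lars2 (-2.04) and Neat1 (0.01) were not called. Spermatid markers summed to 8687 to 10180 CPM in the maternal dose 2 cross, 8293 to 9621 CPM in the paternal dose 1 cross and 9480 to 10010 CPM in the control cross. Of the 16 marker lists, 13 overlapped between the maternal dose 2 cross and the control cross, Sertoli and Leydig cells among them. Macrophage markers were lower (64.5 to 66.2 CPM in the maternal dose 2 cross, 67.4 to 73.9 CPM in the control cross), and granulosa (154 to 167 CPM against 124 to 150 CPM) and oviduct and uterus markers (162 to 196 CPM against 138 to 155 CPM) higher. Against the paternal dose 2 cross, macrophage and luteal markers lay lower and granulosa markers higher, with no overlap. In the paternal dose 1 cross, endothelial (32.0 to 32.7 CPM against 26.2 to 28.8 CPM in the control cross) and ovarian surface epithelium markers (12.0 to 14.5 CPM against 8.90 to 11.6 CPM) lay higher, and 14 lists overlapped. Epididymis markers summed to 10.1 CPM in maternal dose 2 cross A against at most 0.570 CPM in the control cross. The part of these transcripts, markers and of that library in the changes of Kcnq1ot1 and Gnasas1 was not tested.

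**Figure D2:**
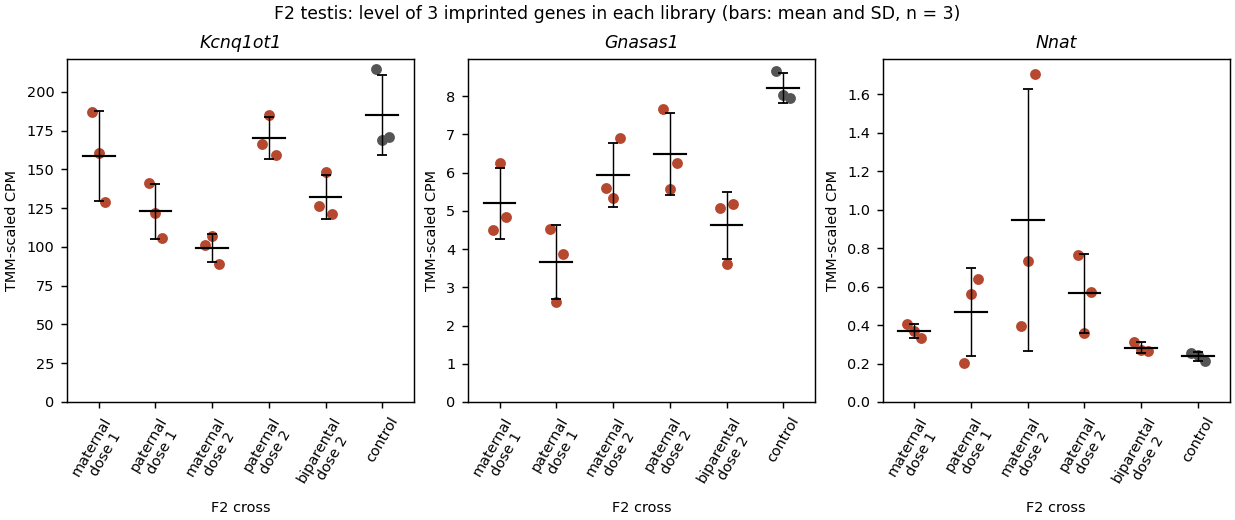
CPM of Kcnq1ot1, Gnasas1 and Nnat in each F2 testis library, by cross, with the group mean and SD (n = 3 each). The maternal dose 2 libraries of Kcnq1ot1 (89.2 to 107 CPM) and the paternal dose 1 libraries of Gnasas1 (2.61 to 4.51 CPM) lie below all control cross libraries, and Nnat is highest in maternal dose 2 cross C (1.71 CPM).

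Nnat was close to the limit of detection in testis and did not pass. In F2 testis it had 0.395, 0.735 and 1.71 CPM (15, 29 and 82 counts) in the maternal dose 2 cross and 0.256, 0.244 and 0.212 CPM (11, 9 and 8 counts) in the control cross. The groups did not overlap, and the change of 2.00 (SE 0.49) had an edgeR adjusted p of 0.0912. It was called at 2.36 without maternal dose 2 cross A, and was 1.24 without maternal dose 2 cross C (adjusted p = 0.506). In F1 testis, where no member passed, Nnat had the lowest unadjusted p, at 0.384, 0.532 and 0.391 CPM in controls, 0.291, 0.550 and 0.356 CPM at dose 1 and 0.718, 0.538 and 1.94 CPM at dose 2. Dose 2 against dose 1 gave 1.43 (SE 0.50, edgeR adjusted p = 1.0), and 0.69 without dose 2 C. Nnat is also known from fat cells, and adipocyte markers summed to 71.9 CPM in F1 testis dose 2 C (median of F1 testis 21.8) and to 34.5 CPM in F2 testis maternal dose 2 cross C (median of F2 testis 15.3), the highest of each set, and their part in the level of Nnat was not tested.

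Kcnq1ot1 and Gnasas1 were the only members that passed in F2 testis by edgeR. Of 39 members tested, edgeR called 1 in the maternal dose 2 cross over control cross (0.372% of all 19379 genes), 1 in the paternal dose 1 cross (0.201%), and 1 in the maternal over the paternal dose 2 cross (0.119%). It called 0 in the maternal dose 1 cross (0.0103%), the paternal dose 2 cross (0.00516%), the biparental dose 2 cross (0.0155%) and the maternal over the paternal dose 1 cross (0.0413%). DESeq2 called more genes overall. Its calls were 2 members in the paternal dose 1 cross (Gnasas1 and Kcnq1ot1; 1.18% of all genes), 2 in the maternal over the paternal dose 2 cross (Kcnq1ot1 and Slc22a18; 2.43%), 1 in the biparental dose 2 cross (Gnasas1; 0.165%) and 1 in the maternal dose 2 cross (Kcnq1ot1; 1.70%). It called 0 in the maternal dose 1 cross (0.0619%), the paternal dose 2 cross (0.0413%) and the maternal over the paternal dose 1 cross (0.779%).

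At an unadjusted edgeR p under 0.05, the maternal dose 2 cross had 8 members (15.7% of all genes): Kcnq1ot1, Mirg, Rian and Gnasas1 lower, and Nnat, Gnas, H19 and Dlk1 higher. The paternal dose 1 cross had 6 (12.5%), namely Gnasas1 and Kcnq1ot1 lower and Peg3, Cd81, Dlk1 and Gnas higher. The biparental dose 2 cross had 5 (7.02%), the maternal dose 1 cross 3 (6.54%) and the paternal dose 2 cross 1 (5.02%). Between the parental origins there were 5 at dose 1 (11.5%) and 3 at dose 2 (16.0%). Beyond the genes already named these were Rasgrf1 and Peg10 in the biparental dose 2 cross, Peg12 and Ube3a in the maternal dose 1 cross, set against the control cross as well as against the paternal dose 1 cross, and Slc22a18 and Zrsr1 in the maternal over the paternal dose 2 cross. The median change of the members ran from -0.051 to 0.052 over the 7 comparisons, and that of all genes from -0.0056 to 0.00567.

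In F1 testis edgeR called 0 of 38 members at dose 1 over control (0.0210% of all 19025 genes), 0 at dose 2 over control (0.00526%) and 0 at dose 2 over dose 1 (0.0263%), and DESeq2 called 0 in each (0.0263% to 0.142% of genes). At an unadjusted p under 0.05 there were 0 members at dose 1 (3.18% of genes), 3 at dose 2 (1.93%) and 3 between the doses (3.31%). These were Nnat and Gnasas1 in both of the comparisons that hold dose 2, Ndn over control and H19 over dose 1. H19 had 2.04, 1.40 and 2.27 CPM in controls, 1.24, 1.39 and 1.56 CPM at dose 1 and 1.5, 2.47 and 3.79 CPM at dose 2, so that dose 2 C was the highest and the control and dose 2 libraries overlapped. Without dose 2 B and C only library A would remain at dose 2, so such a fit cannot decide whether these members changed and is not read. The median size of the members' change was 0.137 to 0.163 and that of all genes 0.151 to 0.159.

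**Figure D3:**
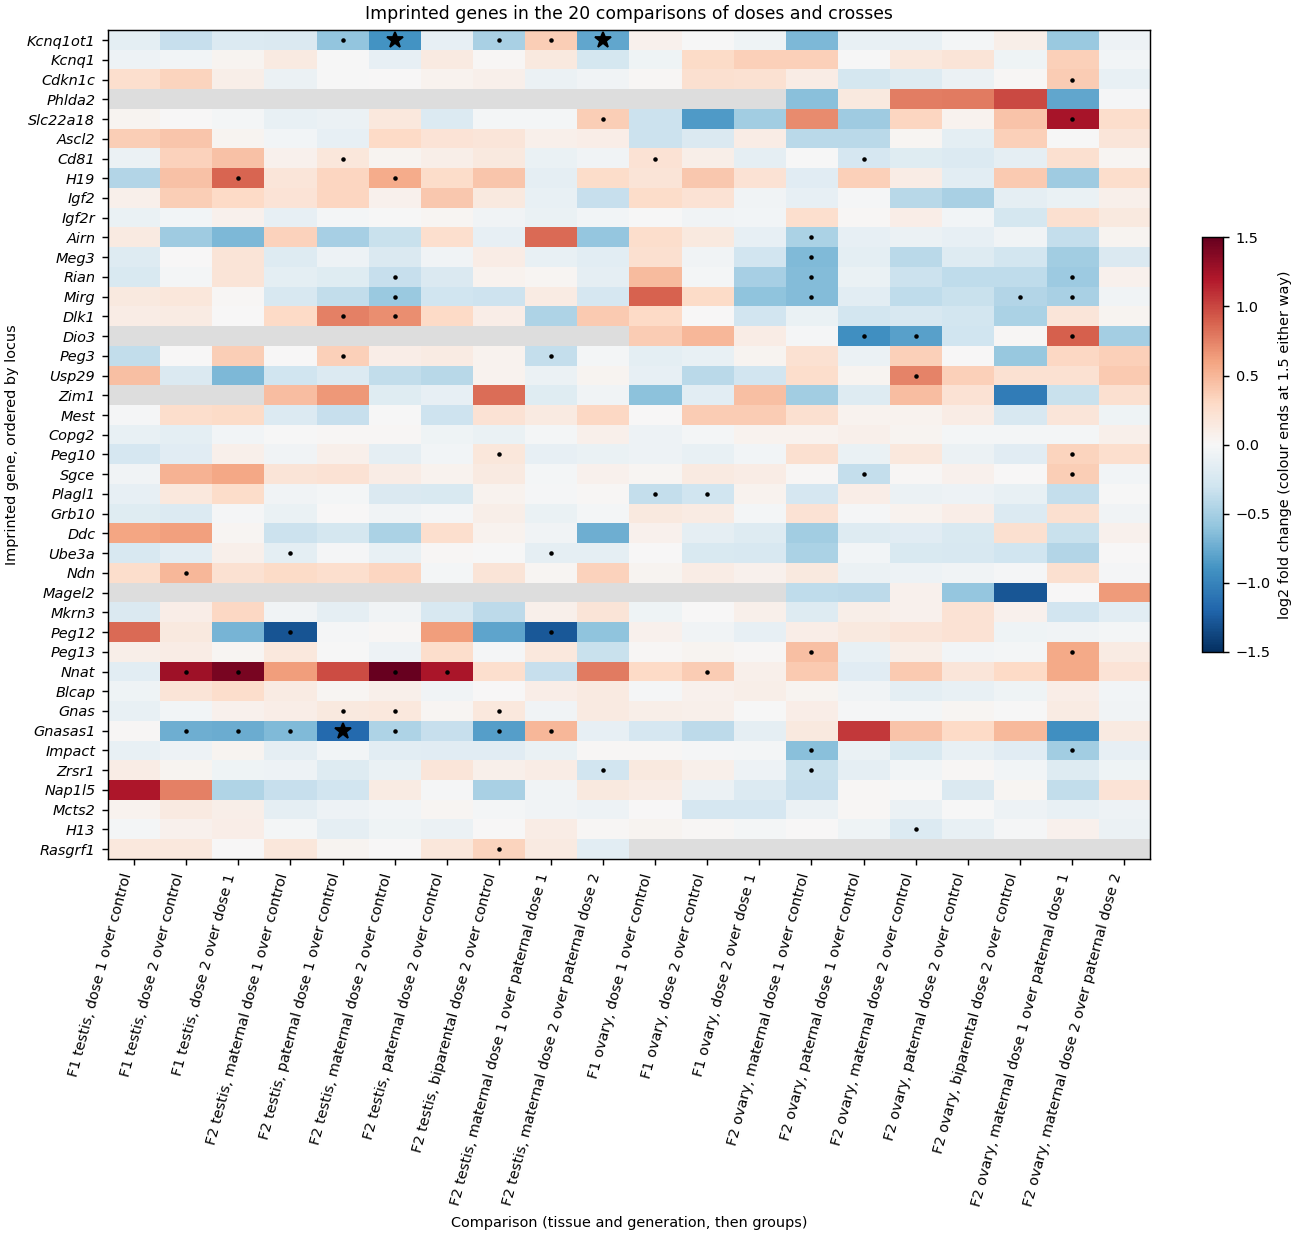
Log2 fold change (colour, ends at -1.5 and 1.5) of the 42 members tested in at least 1 comparison, in rows, for the 20 comparisons of doses and crosses, in columns. Grey is not tested, a star an adjusted p under 0.05 and a dot an unadjusted p under 0.05; the 3 stars are Kcnq1ot1 in both of its maternal dose 2 comparisons and Gnasas1 in the paternal dose 1 cross of F2 testis.

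In the F1 ovary no imprinted gene passed the test at either dose. EdgeR called 0 of 39 members at dose 1 over control (0% of all 17896 genes), 0 at dose 2 over control (0%) and 0 at dose 2 over dose 1 (0%), and DESeq2 0 in each (0.0447% to 0.319% of genes). The lowest unadjusted p was that of Plagl1, with 214, 290 and 226 CPM in controls, 203, 193 and 176 CPM at dose 1 and 170, 209 and 213 CPM at dose 2. All 6 exposed libraries lay below the lowest control library, by a change of -0.35 at dose 1 (SE 0.13, edgeR adjusted p = 0.550) and -0.30 at dose 2 (SE 0.13, adjusted p = 0.814), both against the same controls. Unadjusted p under 0.05 was reached by 2 members at dose 1 (8.33% of genes), Plagl1 and Cd81, by 2 at dose 2 (3.75%), Plagl1 and Nnat, and by 0 between the doses (6.02%). Without control A these numbers were 1, 3 and 1, with Plagl1 among them at both doses. The shares of all genes without control A are not given here, so these numbers are not read as particular to the members.

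In F2 ovaries of the maternal dose 1 cross no member passed, and those with an unadjusted p under 0.05 included Rian, Meg3 and Mirg of the Dlk1-Dio3 cluster, all on the low side, and Peg13 on the high side. Of 41 members edgeR called 0 in this cross over the control cross (0% of all 17400 genes), and 7 had an unadjusted p under 0.05 (13.1% of genes). Rian had 134, 107 and 51.9 CPM in the maternal dose 1 cross and 147, 149 and 163 CPM in the control cross (-0.65, SE 0.21, edgeR adjusted p = 0.353). Meg3 had 230, 166 and 70.0 CPM in the maternal dose 1 cross and 279, 201 and 257 CPM in the control cross (-0.66, SE 0.28, adjusted p = 0.355). Meg3 overlapped between the groups and Rian did not, and library C was the lowest for both. Mirg had 5.23, 4.79 and 3.42 CPM in the maternal dose 1 cross and 6.38, 7.73 and 6.89 CPM in the control cross, also without overlap (-0.65, SE 0.21, adjusted p = 0.353). Impact, Zrsr1 and Airn were the others on the low side (-0.62, -0.34 and -0.48), and Peg13 changed by 0.45.

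Library C of that cross was also the lowest F2 ovary library for Kcnq1ot1 (4.71 CPM), Ube3a (18 CPM), Nap1l5 (189 CPM) and Plagl1 (69.7 CPM). Without it, 5 members kept an unadjusted p under 0.05 (Zrsr1, Rian, Mirg, Peg13 and Impact) and none was called. Without library A, where B and C remained, Meg3, Rian, Peg13 and Impact were called. The shares of all genes in these fits are not given here, so nothing particular to the members is read from them. The nuclear RNA Neat1 had 220, 116 and 45.0 CPM in the maternal dose 1 cross and 276, 230 and 233 CPM in the control cross (-0.95, SE 0.34, edgeR adjusted p = 0.353), without overlap. Malat1 had 319, 332 and 70.8 CPM in the maternal dose 1 cross and 521, 347 and 343 CPM in the control cross (-0.75, SE 0.36, adjusted p = 0.392). Granulosa cell markers summed to 10650 CPM in library C, the highest of F2 ovary against a median of 7791 CPM. Of the 16 marker lists, 3 did not overlap with the control cross, all lower: theca (1684 to 2457 CPM in the maternal dose 1 cross, 3402 to 3904 CPM in the control cross), Leydig (5117 to 5986 CPM against 7151 to 7943 CPM) and luteal cells (121 to 256 CPM against 271 to 552 CPM). The part of these transcripts and markers in the levels of the members was not tested.

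Peg13, a paternally expressed non-coding RNA in an intron of Trappc9 on the same strand, had the lowest unadjusted p of F2 ovary, between the parental origins at dose 1. It had 77.8, 102 and 115 CPM in the maternal dose 1 cross and 70.2, 61.7 and 67.0 CPM in the paternal dose 1 cross. Every library of the maternal dose 1 cross was above those of the paternal dose 1 cross, with means of 98.5 ± 19 CPM in the maternal dose 1 cross and 66.3 ± 4.29 CPM in the paternal dose 1 cross (SD, n = 3 each). The change was 0.57 (SE 0.15, edgeR adjusted p = 0.374), and 0.71 without maternal dose 1 cross A (adjusted p = 0.0192). Its host gene Trappc9 had 110, 123 and 147 CPM in the maternal dose 1 cross and 117, 121 and 110 CPM in the paternal dose 1 cross (0.13, SE 0.11). Markers of Sertoli cells, endothelium and ovarian surface epithelium lay higher in the maternal than in the paternal dose 1 cross without overlap, and their part in the level of Peg13 was not tested.

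This comparison of parental origins had the most members at an unadjusted p under 0.05, 9 of 41 (12.6% of genes), with 0 called (0.00575%). The median size of the members' change was 0.334, against 0.201 for all genes. Beside Peg13 the members were Dio3, Slc22a18, Sgce, Cdkn1c and Peg10, which were higher in the maternal than in the paternal dose 1 cross, and Rian, Impact and Mirg, which were lower. Without maternal dose 1 cross C there were 3 (Slc22a18, Rian and Peg13), and 2 were called without maternal dose 1 cross A (Rian and Peg13). For these fits too the shares of all genes are not given, and the counts are not read as particular to the members.

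Each of the other F2 ovary comparisons had 0 members called by edgeR. The share of all genes called was 0.00575% in the paternal dose 1 cross, 0% in the maternal dose 2 cross, 0% in the paternal dose 2 cross, 0% in the biparental dose 2 cross and 0% in the maternal over the paternal dose 2 cross. Unadjusted p under 0.05 was reached by 3 members in the paternal dose 1 cross (4.97% of genes; Dio3, Sgce and Cd81), 3 in the maternal dose 2 cross (6.00%; Usp29, Dio3 and H13), 0 in the paternal dose 2 cross (3.82%), 1 in the biparental dose 2 cross (9.0%; Mirg) and 0 in the maternal over the paternal dose 2 cross (2.38%). DESeq2 called 0 members in all 7 comparisons of F2 ovary (0.0115% to 0.282% of genes). Dio3 had 4.80, 5.06 and 5.04 CPM in the paternal dose 1 cross, 4.69, 5.72 and 5.54 CPM in the maternal dose 2 cross and 5.90, 12.7 and 9.54 CPM in the control cross. All 6 exposed libraries lay below the control cross, whose lowest library (5.90 CPM) was close to them.

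Whether an exposure changed a member otherwise in testis than in ovary was tested as the difference of the 2 changes. EdgeR called 0 of 40 members in F1 at dose 1 (0.00492% of all 20336 genes) and at dose 2 (0%). It called 0 of 41 members in F2 in the maternal dose 1 cross (0% of all 20583 genes), the paternal dose 1 cross (0%), the maternal dose 2 cross (0%), the paternal dose 2 cross (0%) and the biparental dose 2 cross (0.00972%). DESeq2 called 1, Gnasas1 in the paternal dose 1 cross (adjusted p = 0.00621; 0.437% of all genes), and 0 in the other 6, with 0.00983% to 0.437% of genes over the 7. By edgeR the Gnasas1 change in testis minus that in ovary was -2.22 (SE 0.54, adjusted p = 0.168). In ovary it had 0.235, 1.23 and 0.815 CPM in the paternal dose 1 cross and 0.526, 0.211 and 0.353 CPM in the control cross, from 10 to 55 and 11 to 30 counts in the same order, and the groups overlapped.

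Unadjusted p under 0.05 for such a difference was reached in F1 by 1 member at dose 1 (11.4% of genes) and 0 at dose 2 (5.32%). The 1 was Peg12, a member of the Frat family that binds the kinase GSK3 (0.84, SE 0.37, edgeR adjusted p = 0.425), with 0.461, 0.324 and 0.281 CPM in dose 1 testes and 0.288, 0.170 and 0.122 CPM in control testes. These testis groups overlapped, and their values rest on 10 to 34 counts at dose 1 and 5 to 12 counts in controls. In ovary Peg12 had 4.25, 4.30 and 4.38 CPM at dose 1 and 3.73, 4.59 and 4.02 CPM in controls, and these overlapped as well. In F2 there were 5 members in the maternal dose 1 cross (9.04%), 4 in the paternal dose 1 cross (6.74%), 4 in the maternal dose 2 cross (7.95%), 2 in the paternal dose 2 cross (4.35%) and 5 in the biparental dose 2 cross (9.20%). Cd81 and Gnasas1 were among them in 3 and 2 of these crosses. The members' counts in F2 ran near or above the share of all genes, and nothing particular to the members was read from them.

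Neighbouring members were also compared library by library, as deviations of log2 CPM from their group mean in 27 libraries of a tissue. Of 19 pairs listed, 33 relations could be computed, 16 in testis and 17 in ovary, with p from 100000 permutations within groups, adjusted over the 33. Meg3 and Rian deviated together in testis (Pearson r = 0.895, Spearman rho = 0.809, permutation p = 0.00073, adjusted 0.00803) and in ovary (r = 0.902, rho = 0.731, permutation p = 0.00062, adjusted 0.00803). These RNAs lie one after the other on the same strand. In testis r was 0.93 in F1 and 0.769 in F2, in ovary 0.876 in F1 and 0.927 in F2, and without the 2 farthest libraries it was 0.732 in testis and 0.605 in ovary. Mirg, the next RNA on that strand, gave r of 0.279 with Rian in testis and 0.665 in ovary, neither of which passed (adjusted permutation p = 0.271 and 0.131).

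In ovary, Peg3 and Zim1 gave r = 0.841 and rho = 0.777 (permutation p = 0.00047, adjusted 0.00803), with 0.643 in F1, 0.879 in F2 and 0.822 without the 2 farthest libraries. Mcts2 and its host H13 gave r = 0.626 and rho = 0.595 in ovary (permutation p = 0.00271, adjusted 0.0224), with 0.562 in F1, 0.651 in F2 and 0.587 without the 2 farthest libraries. Spearman's rho passed for the same 4 relations, with adjusted p of 0.0158 to 0.0401. The pairs in which a non-coding RNA is known to silence its neighbour were not among them: Kcnq1ot1 and Cdkn1c gave -0.562 in testis and -0.464 in ovary (adjusted 0.271 for each), Kcnq1ot1 and Kcnq1 gave 0.114 and -0.0122, and Igf2r and Airn gave -0.0023 and 0.0557. H19 and Igf2, which share enhancers, gave 0.473 in testis and 0.218 in ovary and did not pass. Cell mixture differs between libraries and was not taken out of these values, so a shared cell type and shared regulation cannot be told apart.

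**Figure D4:**
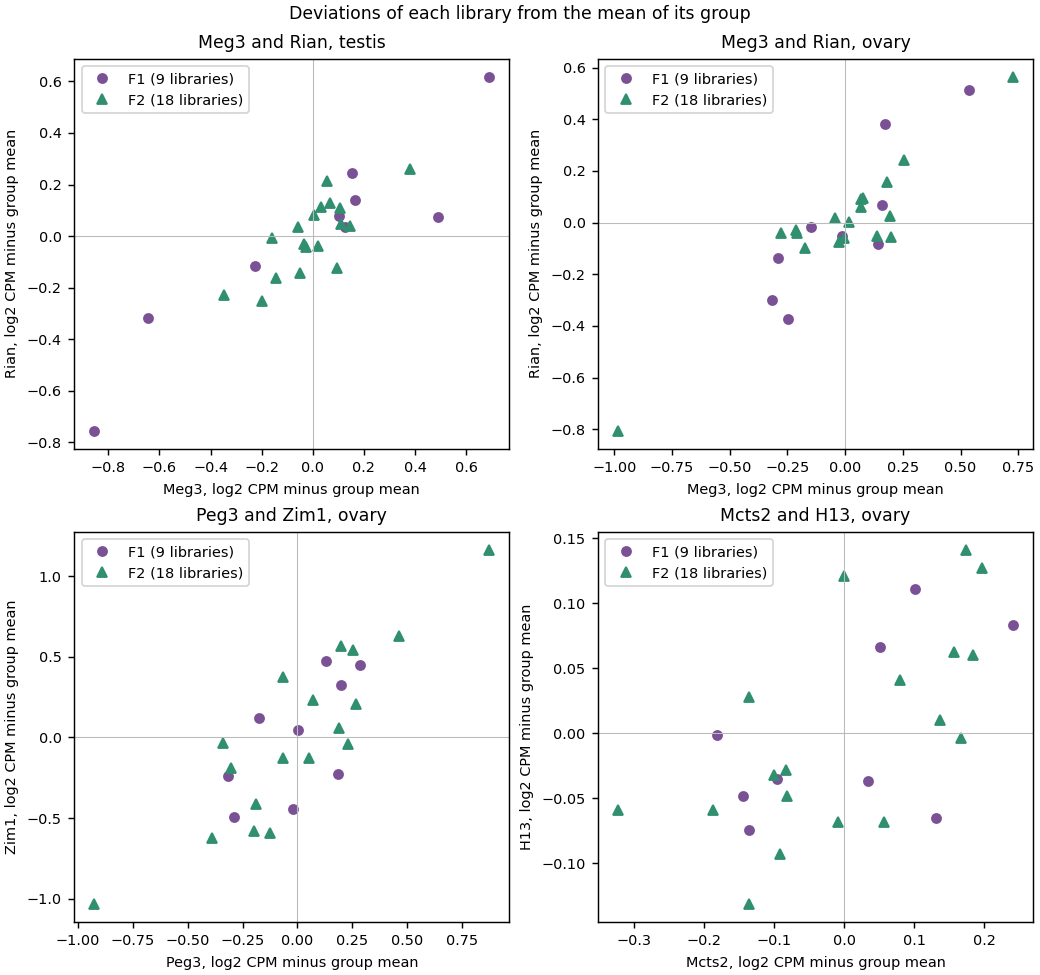
Deviation of log2 CPM from the group mean for the 4 relations that passed, 1 point per library (27 in each panel), with F1 as circles and F2 as triangles. Points run along the rising diagonal in each panel, with r of 0.895, 0.902, 0.841 and 0.626 in the order of the panels.

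Genes that write, keep or erase imprints were looked at beside the members. Of 27 such genes listed, 25 were in the tables, and 23 to 25 of these were tested in each of the 20 comparisons of doses and crosses, with 0 calls by edgeR and median changes from -0.168 to 0.105. Dnmt1, which keeps methylation through replication, had medians of 77.9 CPM in testis and 272 CPM in ovary, and Zfp57, which protects imprints, 28.9 and 74.1 CPM in the same order. Dppa3, which protects maternal marks in the egg, had 0.0769 CPM in testis and 26.3 CPM in ovary. Of 43 further imprinted genes outside the set, 28 to 32 were tested in each comparison, again with 0 calls and with median changes from -0.183 to 0.0445.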

How the data were processed

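The authors deposited 1 table per tissue, with 27 libraries each, whose values are whole counts of reads for each gene without normalization. Per the submitters' processing notes, the authors' tools include featureCounts 2.0.3, TopHat2 2.1.1 with Bowtie2 2.4.5, and DESeq2 1.32.0, and the build is mm39, and per the labels' protocols a stranded mRNA ligation kit was used. The strand setting of the counting is not given in the sources used here. Exonic bases are shared with another gene by 21 members (GENCODE M21), and how reads of such pairs were counted is not known. Promoter and miRNA coordinates are of GRCm38.p6 and come from RefSeq.

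Counts were fitted with edgeR 4.0.16 (quasi-likelihood F test, R 4.3.3), separately for each tissue and generation, with TMM factors, filterByExpr at a minimum count of 10, group means as the design and Benjamini-Hochberg adjustment over all genes at 0.05. Contrasts of both tissues of a generation, and of the 12 control libraries, were fitted together. Log2 CPM for the correlations used a prior count of 2. CPM were scaled within each tissue and generation, so levels set across these are scaled separately, except in the comparison of the 12 control libraries. Replicate libraries differed by more than counting error (lowest chi-square per degree of freedom 7.43), and 0 columns were left unmapped. The fits were tested on simulated data.

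Alternatives were DESeq2 1.42.0 (Wald test), RLE size factors, fits without the filter, a fit of the 6 compared libraries alone, a block for the replicate letter and leaving out each library. Values were given in full for members called in any comparison and, where none was called, for the member with the lowest unadjusted p; Nnat in F2 testis, Rian, Meg3, Mirg, Dio3 and H19 were added after their values were seen. The members, lists and tests were chosen with earlier results of these data known.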

Additional observations from a re-analysis of the deposited data

How the results depend on the processing

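The changes of the members called, or with the lowest unadjusted p where none was, kept their direction under every alternative run. Of the other members in testis over ovary, 2 that were not called changed sign: Cdkn1c (-0.18) with RLE size factors (0.11), DESeq2 (0.11) and without F1 testis control A (0.03), and Mirg (-0.17) with RLE size factors (0.11), DESeq2 (0.11) and the replicate block (0.09). RLE size factors and no filter on low counts left all 28 counts within 1.5 times. DESeq2 moved 4 of 28 counts: to 2 from 1 in the paternal dose 1 cross and in the maternal over the paternal dose 2 cross of F2 testis, and to 1 from 0 in the biparental dose 2 cross of F2 testis and in the testis minus ovary difference of the paternal dose 1 cross. Only the 6 libraries compared gave 0 in the paternal dose 1 cross of F2 testis. Leaving out 1 library at a time gave 0 to 2 called in F2 testis for the paternal dose 1 cross and 0 to 2 for the maternal dose 2 cross, 0 to 1 in the maternal over the paternal dose 2 cross, 0 to 4 in the maternal dose 1 cross of F2 ovary (4 without library A), 0 to 2 in the maternal over the paternal dose 1 cross of F2 ovary, 34 to 37 in testis over ovary, and 0 in each of the other comparisons. The number of all genes called moved in such fits too. For the paternal dose 1 cross of F2 testis it was 53 without paternal dose 1 cross A, where 2 members were called. It was 3 without paternal dose 1 cross B, where 0 members were called. For the F2 ovary comparisons it is not given here. The counts of correlated pairs were the same under RLE size factors, a prior count of 0.5 and without the 4 libraries that stand apart, where the lowest r of the 4 relations was 0.765. The causes of these moves were not tested.

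The replicate letters were not taken to pair libraries, since same-letter deviations correlated by over 0.1 in every pair in only 1 of 20 comparisons. With the letter as a replicate block, 27 of 28 counts stayed within 1.5 times, and the paternal dose 1 cross of F2 testis had 2 members called, Gnasas1 and Kcnq1ot1. Leaving out single libraries was not run for the testis minus ovary differences of the maternal dose 1, paternal dose 2 and biparental dose 2 crosses. With 3 libraries in a group the tests rest on few values, and counts of Nap1l5, Nnat, Dio3 and Rasgrf1 in their low tissue are near the counting limit.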
